A study of Homo sapiens with 18 samples.

Results

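HCC827, an established human lung adenocarcinoma cell line with an activating EGFR mutation, was read by PacBio long-read sequencing and by Illumina short-read sequencing, and the gene counts of both methods were compared. The libraries were chosen by their labels: 3 PacBio libraries and 3 Illumina libraries of HCC827, which are 6 of the 18 libraries of the series, paired by replicate number. The 3 replicates are cultures of 1 line with no treatment named, obtained from ATCC, grown independently in RPMI 1640 medium with fetal calf serum to near confluence and frozen before RNA was taken. The PacBio Iso-Seq libraries were made by a service company from total RNA, with a size selection near 2 kb and 12 PCR cycles, and were run on a Sequel II. The Illumina libraries were made from 3.75 ng of poly(A)-purified mRNA that was fragmented, amplified with 11 PCR cycles by a directional kit and read as 75 nt pairs on a NextSeq 500. RNA input, library kit and sequencer therefore change together, and a difference between the platforms cannot be told apart from any of them. A set of 6 libraries of H1975, another EGFR-mutant lung adenocarcinoma line prepared the same way, was used at the end to ask where the HCC827 ratio differs.

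In Iso-Seq a poly(A)-tailed RNA is copied end to end, and in principle 1 molecule gives 1 sequence whatever its length. In short-read sequencing an RNA is broken first, so a long RNA gives more fragments than a short one at the same number of molecules. A long sequence that covers a whole transcript also touches every other annotated gene whose exons lie along it, whereas a short read touches only what lies within it. Counts of nested and overlapping genes therefore need not compare between the methods.

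The cells carried the markers of a lung epithelial carcinoma line on both platforms. EPCAM, an epithelial adhesion protein, had 8, 5 and 13 PacBio counts in replicates 1 to 3, and CDH1, the E-cadherin gene, had 33, 20 and 21. KRT7, KRT8, KRT18, KRT19 and EGFR were also read in every PacBio library, and NKX2-1, the lung lineage transcription factor, had 0, 3 and 1 counts. Of the markers of other cell types, COL1A2, DCN, LUM, PDGFRB, PTPRC, CD3E, LYZ, HBB, PECAM1, VWF and CDH5 had 0 PacBio counts. COL1A1, a fibroblast collagen gene, had 2, 1 and 0, and CORO1A, a coronin of blood cells, had 1, 0 and 3. The summed fibroblast markers took 0.00369, 0.00245 and 0% of PacBio counts against 0.00134, 0.00146 and 0.000975% of Illumina counts. The hematopoietic markers took 0.00185, 0 and 0.00795% of PacBio counts against 0.00131, 0.00173 and 0.00173% of Illumina counts, and the endothelial markers 0, 0 and 0% against 0.000431, 0.000321 and 0.000367%. In bulk RNA, few cells of a type and little RNA per cell cannot be told apart.

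The platforms differed greatly in depth. The gene counts summed to 54339, 40910 and 37795 in PacBio replicates 1 to 3, against 36838573, 10020699 and 34722416 in Illumina replicates 1 to 3. A gene had 10 or more counts in 1268, 736 and 810 cases in PacBio libraries, against 23995, 19333 and 23007 in Illumina libraries, so single PacBio genes carry a large counting error. PacBio replicates 1 and 2 were closer to each other than sampling noise allows for separate draws (mean chi-square 0.673 over 929 genes, with 1 expected), whereas PacBio replicate 3 stood apart from both (4.41 and 4.88). Values are therefore given library by library, with no SD over the PacBio libraries, and each count of calls was also made with replicates 1 and 2 summed into 1 sample. The deviations of each PacBio library from the platform mean followed its own Illumina partner: over 188 genes the correlation with the same-numbered library was 0.380, 0.376 and 0.492, and with other numbers it lay between -0.453 and -0.0367. A gene at 0 in all 3 PacBio libraries was given a floor of 3 counts over the group, which is 16.9 CPM (counts scaled to a common library size), and its difference is printed as a lower bound that covers counting error only. Medians with genes at 0 at their bound leave out genes whose Illumina level was also at or under this floor. These were 3131 of all tested genes. The classes by level below are an exception.

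Of 16896 genes tested, 4685 differed between PacBio and Illumina, which is 27.7%. PacBio was higher for 1387 genes (8.21%) and lower for 3298 genes (19.5%), by edgeR's quasi-likelihood test with the replicate number as a block at a Benjamini-Hochberg adjusted p below 0.05. Of the 3298 lower genes, 1350 had no PacBio count at all and 1948 had at least 1. Among the 2292 genes with a mean of 100 CPM or more, 49.0% differed, with 347 higher (15.1%) and 777 lower (33.9%). The shares differed by kind of gene: of 12473 nuclear protein-coding genes tested, 594 were higher and 2465 lower. Of 2559 long non-coding RNA (lncRNA) genes tested, 677 were higher and 289 lower. The 8.21% is therefore not the share higher among protein-coding genes, of which most lists below consist. These splits depend on the scaling: taking plain library totals in place of trimmed-mean (TMM) scaling moved the median log2 ratio of all tested genes by 0.87 and gave 3012 higher and 1484 lower genes, and TMM computed from the well measured genes moved it by 0.22 and gave 1571 and 2523. On both scalings 1382 of the 1387 higher genes stayed called higher, and 1484 of the 3298 lower genes stayed called lower. Every fold below is a log2 ratio of PacBio over Illumina with its standard error (SE) on the TMM scale of this fit, unless another scale is named and except in the comparison with H1975. Unless a sentence says otherwise, a named call also held on library totals, with the other TMM scaling, in DESeq2, with replicates 1 and 2 summed, and without pair 2 or pair 3. Without pair 1 edgeR called 0 genes (2744 stood below 0.05 before adjustment), while 295 were higher and 360 lower in DESeq2.

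**Figure D1:**
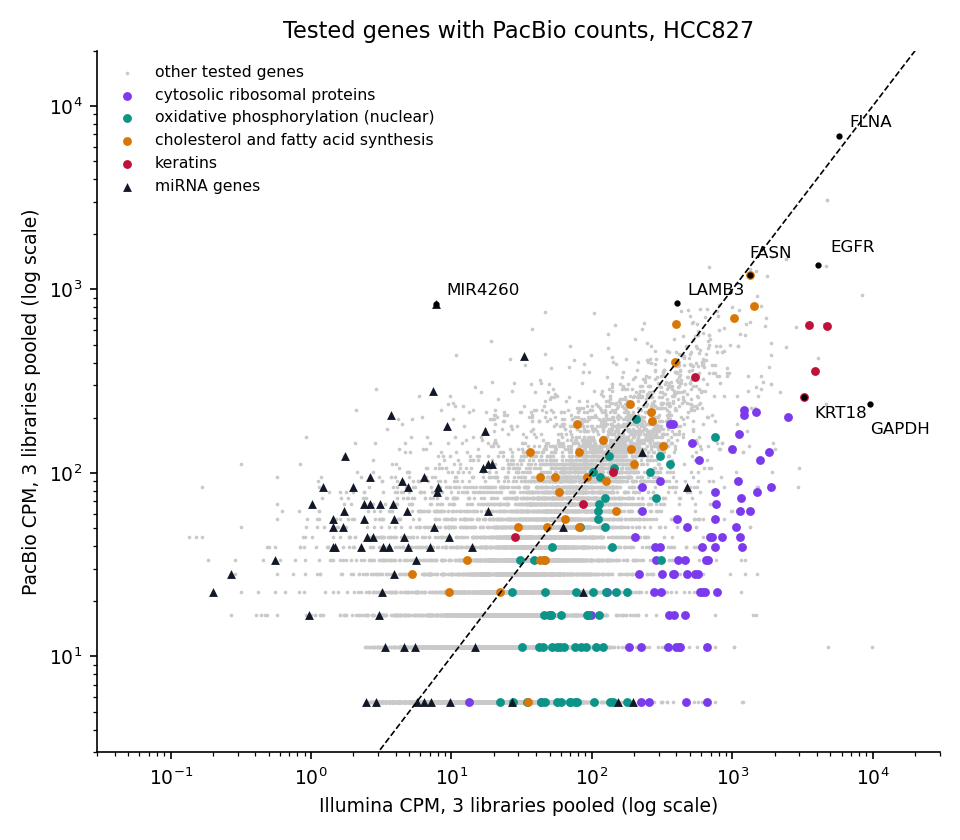
Pooled level of each tested gene in PacBio (vertical axis, CPM, log scale) against Illumina (horizontal axis, CPM, log scale), with the dashed line at equal levels and colours for ribosomal protein, oxidative phosphorylation, cholesterol and fatty acid, keratin and miRNA genes. Most ribosomal protein genes lie below the line and most of the drawn miRNA genes above it, and genes with 0 PacBio counts are not drawn.

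The summed counts of the line fell into a different length profile on each platform. Nuclear protein-coding genes with a canonical transcript under 1.5 kb took 8.15, 8.56 and 11.9% of the protein-coding counts in PacBio replicates 1 to 3, against 16.98, 17.98 and 19.1% in Illumina. Genes of 2.5 to 5 kb took 45.8, 45.9 and 45.3% in PacBio against 35.3, 34.4 and 34.8% in Illumina, a log2 ratio of shares of 0.37, 0.41 and 0.38 in the 3 pairs. Genes of 8 kb or more took 7.84, 7.97 and 3.80% in PacBio against 9.63, 9.10 and 7.84% in Illumina. The middle class was thus higher in PacBio and both ends were lower, in 3 of 3 pairs each, and the platforms did not overlap in these classes except at 8 kb or more, where PacBio replicate 2 lay above Illumina replicate 3. An exact sign-flip test over 3 pairs cannot go below a two-sided p of 0.25, the value these 3 classes gave. The long end rests largely on replicate 3, with log2 ratios of -0.30, -0.19 and -1.04, whose PacBio library had fewer long genes and more of 1.5 to 2.5 kb (27.2%, against 19.3 and 20.2% in the other PacBio libraries). The count-weighted median length was 3600, 3506 and 2872 bases in PacBio against 3159, 2992 and 2888 bases in Illumina. By the union of all exons in place of the canonical transcript, the mean log2 share ratio of the 2.5 to 5 kb class was 0.02, and that of the shortest class was -0.34 in place of -0.94.

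**Figure D2:**
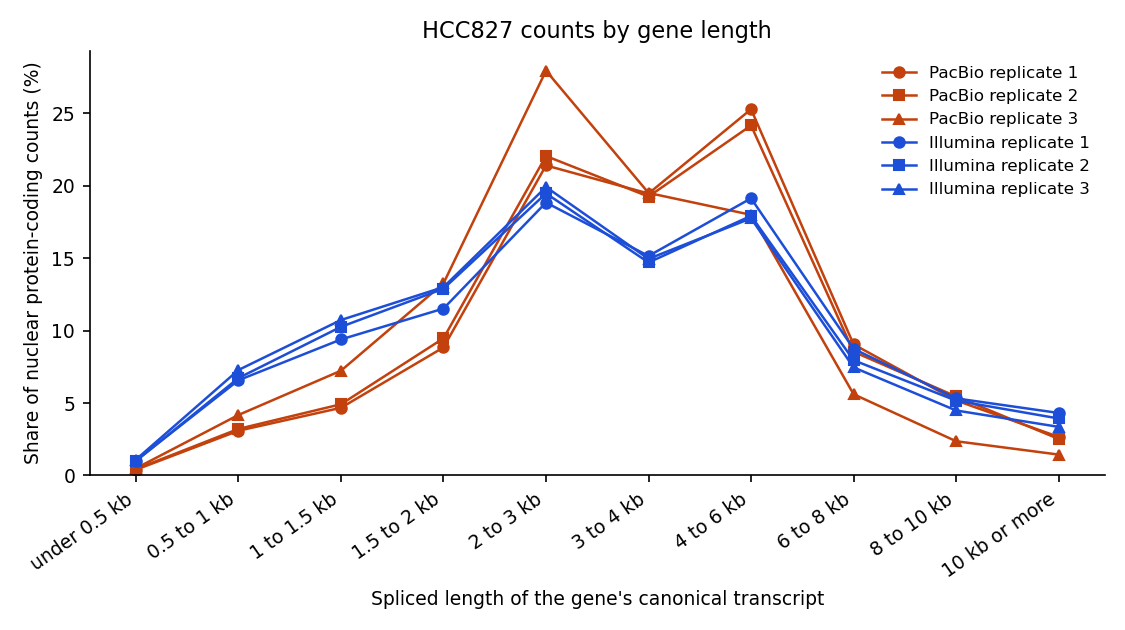
Share of nuclear protein-coding counts (vertical axis, percent) in 10 classes of canonical transcript length (horizontal axis, kb), with 1 line per library for 3 PacBio and 3 Illumina libraries. The PacBio lines lie below Illumina in every class under 1.5 kb and above it from 2 to 4 kb, and PacBio replicate 3 lies below the other PacBio libraries from 4 kb upward.

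The gene by gene test showed the same ends, but in the middle class, too, more genes were called lower than higher. Of all 12473 tested nuclear protein-coding genes, 594 were higher and 2465 lower. Of the 1822 tested protein-coding genes under 1.5 kb, 96 were higher and 638 lower in PacBio. Of the 1093 tested genes of 8 kb or more, 11 were higher and 436 lower, and of the 4733 genes of 2.5 to 5 kb, 283 were higher and 509 lower. Base composition moved less: within 2 to 5 kb, genes with 60% GC or more took 18.7, 21.9 and 21.1% of that class in PacBio against 15.2, 18.2 and 16.9% in Illumina. Genes with 45 to 50% GC took 14.3, 13.3 and 13.7% in PacBio against 17.1, 15.7 and 16.1% in Illumina.

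The ratio also differed between classes of Illumina level. Genes of 1.5 to 5 kb were classed by their Illumina CPM in H1975, a split chosen after values of HCC827 had been seen. Illumina is also the platform under the ratio, and few genes differ in ratio between the lines, so the classes are not independent of the ratio and are given as a description. At 25 to 50 CPM, 102 of 1723 genes were higher and 194 lower in PacBio, with a median log2 ratio of -0.08. At 100 to 200 CPM, 20 of 642 were higher and 190 lower, with a median of -0.45. At 500 to 1000 CPM, 1 of 52 was higher and 37 lower, with a median of -1.28. At 1000 CPM or more, 0 of 19 were higher and 17 lower, with a median of -2.35, genes at 0 counts being taken at their bound. In these class medians a gene at 0 PacBio counts with an Illumina level at or under the floor was kept, at a log2 ratio of 0. Those 19 genes took 1.00, 0.988 and 2.10% of all counts in PacBio against 3.20, 3.78 and 3.49% in Illumina. In all, the 100 most abundant genes of each library held 9.94, 10.6 and 12.96% of the counts in PacBio and 23.3, 24.7 and 25.9% in Illumina. The mean difference in that share, PacBio minus Illumina, was -13.48 percentage points, and -7.28 without the genes of the mitochondrial genome. The deposited PacBio counts were taken from clustered sequences, per the file headers, so that 1 count can represent many reads; its part in these differences was not tested.

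Ribosomal protein mRNAs, which are short and among the most abundant of any growing cell, were nearly all lower in PacBio. Of the 79 cytosolic ribosomal protein genes, 76 were lower and 0 higher, against 19.5% lower and 8.21% higher of all tested genes, and their median log2 ratio was -3.97 (-3.78 with genes at 0 at their bound) against -0.80 (-0.30) over all tested genes. Together they took 0.413, 0.373 and 0.981% of the PacBio counts against 3.48, 3.39 and 3.64% of the Illumina counts. On library totals 66 were lower and 0 higher. RPL28, of the large ribosomal subunit, had 173, 145 and 302 CPM in PacBio against 2204, 2678 and 2709 CPM in Illumina, a log2 ratio of -3.64 ± 0.42 (SE, adjusted p = 2.27e-12). The platforms did not overlap for RPL28, and PacBio replicate 3 was the highest of its group. RPL27A lay nearest to equal among the called ribosomal genes, at -0.96 ± 0.32, and that call was lost on library totals and under most other settings.

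The factors that start and lengthen protein chains moved less together than the ribosomal proteins: 1 of 35 was higher and 21 were lower. Of all tested genes 8.21% were higher and 19.5% lower. The median log2 ratio of these factors was -1.29. EEF2, which moves the ribosome along the mRNA, had 1222, 851 and 2036 CPM in PacBio against 4425, 4861 and 4773 CPM in Illumina (-1.84 ± 0.40, adjusted p = 9.44e-05), a call lost on library totals, with replicates 1 and 2 summed and without pair 2. EIF4E, which binds the mRNA cap, was the called member above Illumina, with 71.9, 90.5 and 94.2 CPM in PacBio from 5 counts in each library against 19.2, 14.2 and 17.97 CPM in Illumina (2.29 ± 0.50, adjusted p = 1.21e-04). EIF3K, a small subunit of initiation factor 3, had 0, 0 and 1 PacBio counts against 123, 144 and 143 CPM in Illumina (-4.59 ± 0.74).

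Nuclear genes of oxidative phosphorylation, many of them also short, were lower in PacBio for 52 of 76 members and higher for 0. Of all tested genes 19.5% were lower and 8.21% higher. The median log2 ratio of the oxidative phosphorylation genes was -2.37 (-1.98 with genes at 0 at their bound). These genes took 0.225, 0.255 and 0.474% of counts in PacBio against 0.546, 0.583 and 0.593% in Illumina, and on library totals 27 were lower and 1 higher. ATP5F1B, the catalytic beta subunit of ATP synthase, had 86.3, 109 and 302 CPM in PacBio against 687, 820 and 794 CPM in Illumina (-2.29 ± 0.36, adjusted p = 1.45e-07). COX7C, a small subunit of cytochrome c oxidase, had 0 PacBio counts and was at least 7.37-fold lower. CYC1, the cytochrome c1 gene, was nearest to equal among the called members at -1.28 ± 0.42, a call lost on library totals, with the other TMM scaling, in DESeq2, with replicates 1 and 2 summed and without pair 2. The pattern at the short end was not carried by these lists alone: of the 1707 short genes that are in neither list, 96 were higher and 541 lower. Among those with a mean of 100 CPM or more and no exon shared with another gene, 0 of 50 were higher and 43 lower, with a median log2 ratio of -2.53; these subsets were formed after values had been seen.

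At the long end stood mRNAs of giant proteins, a list of cytoskeletal linkers, motor proteins and large enzymes. Of 56 tested members 46 were lower in PacBio and 0 higher, against 19.5% lower and 8.21% higher of all tested genes. The median log2 ratio of the list was -3.20 (-2.25 with genes at 0 at their bound), and on library totals 28 were lower and 1 higher. When the Illumina counts were first divided by transcript length, 5 were lower and 9 higher, so the direction of this list depends on whether fragments or molecules are compared. The summed share of the list was not lower in every pair, with 2.05, 2.61 and 0.713% in PacBio against 1.67, 2.05 and 1.33% in Illumina. Its log2 ratio was 0.30, 0.35 and -0.89 in pairs 1 to 3. FLNA, the actin crosslinker filamin A, is the most abundant member and had the most PacBio counts of any gene in replicates 1 and 2. It had 550, 597 and 79 PacBio counts, that is 7909, 10810 and 1489 CPM in PacBio against 5496, 8356 and 5340 CPM in Illumina. Its ratio of -0.24 ± 0.46 was not called (adjusted p = 0.714): PacBio lay above Illumina in pairs 1 and 2 and below it in pair 3. DST, the dystonin cytolinker, had 0 PacBio counts against 12020 Illumina counts. PLEC, which encodes plectin, had 62 PacBio counts (-1.72, lost on library totals), and MYH9, the heavy chain of nonmuscle myosin, had 266 and was not called (-0.49).

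All genes of the mitochondrial genome stood at 0 in PacBio. Its 37 genes took 0, 0 and 0% of PacBio counts, which allows shares of up to 0.00554, 0.00735 and 0.00795%, against 9.85, 9.56 and 8.88% of Illumina counts. All 37 were tested, of which 30 were lower and 0 higher, against 19.5% lower and 8.21% higher of all tested genes. All 13 protein genes were among the lower ones. MT-RNR2, the large mitochondrial ribosomal RNA, had 33011, 29822 and 24272 CPM in Illumina and was at least 1715-fold lower in PacBio. MT-CO1, a core subunit of cytochrome c oxidase, was at least 900.5-fold lower, MT-ATP6 688.4-fold, MT-CO2 671.5-fold, MT-ND4 638.3-fold, MT-CO3 571.5-fold, MT-ND1 at least 417-fold, MT-CYB 327.7-fold and MT-ND6 89.5-fold. In human cells the mRNAs of this genome carry short poly(A) tails. The sources used here do not state whether PacBio alignments to the mitochondrial genome entered the counts.

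Copies of genes that arose by reverse transcription of an mRNA also drew almost no PacBio counts. Processed pseudogenes took 0.116, 0.137 and 0.313% of PacBio counts against 5.16, 5.03 and 5.23% of Illumina counts. Of the 1038 tested, 3 were higher and 399 lower, against 8.21% higher and 19.5% lower of all tested genes. EEF1A1P5, a copy of the elongation factor gene EEF1A1, had 2 PacBio counts against 283411 Illumina counts (log2 ratio -8.68). RPL7P1 had 0 against 86965, RPS2P5 had 0 against 70684, and RPL7P9, the pseudogene copy of RPL7 with the most PacBio counts of these, had 26 against 115853 (-3.72). Such copies are near-identical to their parent mRNAs over the length of a short read, so their counts are uncertain wherever reads that match several places could be split, and so are those of parents with many copies, such as ribosomal protein genes, GAPDH, KRT8, KRT18, ACTG1 and FTH1.

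Several protein-coding genes with almost no PacBio counts hold such a copy inside their span. The 10 lowest nuclear protein-coding genes at a mean of 100 CPM or more without a shared exon in the annotation used here were listed after values had been seen, and 7 of them held a processed pseudogene with most of their Illumina count. Of the other 3, EEF1A2 (1 PacBio count against 69478 Illumina counts) and HNRNPA1L3 (1 against 22599) did not, and PCDH11Y was not looked up. SMOC1, which encodes a calcium-binding matrix protein, had 0 PacBio counts against 742, 805 and 781 CPM in Illumina, at least 45.4-fold lower in PacBio. The processed pseudogene RPL7AP6 lies within SMOC1 on the minus strand (14:69885340-69886140, GRCh38), and its 45598 Illumina counts equal 99.99% of the 45603 of SMOC1. CSF1R, the receptor of a macrophage growth factor, had 2, 1 and 0 PacBio counts against 1451, 1249 and 1560 CPM in Illumina, and RPL7P1, inside it at 5:150094302-150095048, had 99.24% of the Illumina count of CSF1R. The same held for SLC35F1 with RPL29P4 (99.92%), PPM1H with GAPDHP44 (92.47%), PCDH11X with EIF4A1P10 (85.32%), C2orf88 with HNRNPCP2 (84.65%) and DTWD2 with PTMAP2 (71.81%), and each of these pseudogenes had 0 PacBio counts. NBEAL1, the lowest gene of the giant protein list at 0 PacBio counts and at least 31.2-fold lower, held RPL12P16 with 94.65% of its Illumina count. ZNF90, the lowest of the chromosome 19 zinc finger genes and at least 11.8-fold lower, held a pseudogene with 99.6%. Over all 12473 tested nuclear protein-coding genes, 203 (1.63%) held a processed pseudogene with at least 50% of their Illumina count, against 110 of the 2465 called lower (4.46%) and 0 of the 594 called higher. Among the 78 called lower with at most 3 PacBio counts and at least 10000 Illumina counts, 27 (34.6%) did.

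Non-coding RNAs fell on both sides. Well-known long non-coding RNAs were mostly lower: of 14 tested list members 9 were lower and 0 higher, and together they took 0.0203, 0.0098 and 0.00265% of PacBio counts against 0.151, 0.0899 and 0.0718% of Illumina counts. MALAT1, an abundant nuclear RNA whose end is not a usual poly(A) tail, had 0 PacBio counts against 988, 412 and 171 CPM in Illumina, at least 34.0-fold lower, a call lost without the replicate block. NEAT1, the scaffold of paraspeckles, had 0 PacBio counts against 5317 Illumina counts, and NORAD, a cytoplasmic RNA that binds Pumilio proteins, had 1 against 13835. Of 22 small nucleolar RNA host genes 10 were lower and 0 higher (on library totals 5 and 0), beside 19.5% and 8.21% of all tested genes. Among them were SNHG29 at -1.60 ± 0.34 (lost on library totals), NOP56 at -1.29 ± 0.35 (lost on library totals, in DESeq2, with replicates 1 and 2 summed and without pair 2), and SNHG32 at 0 PacBio counts, at least 3.27-fold lower. RN7SL1 and RN7SL2, the RNAs of the signal recognition particle, had 0 PacBio counts and were at least 4.17-fold and 3.80-fold lower. Of 12 replication-dependent histone genes 0 were called in either direction, and 10 of them had 0 PacBio counts with an Illumina level at or under the floor. By contrast the class of lncRNA genes as a whole took 15.3, 15.6 and 13.7% of PacBio counts against 8.08, 8.12 and 10.9% of Illumina counts, with 677 of 2559 tested members higher and 289 lower.

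Illumina replicate 3 stood apart at 1 locus that touches these shares. Chromosome 21 took 0.830, 0.784 and 0.732% of counts in PacBio against 0.834, 0.867 and 3.81% in Illumina. The lncRNA gene ENSG00000278996 (21:8197620-8227646) had 0 PacBio counts against 990, 1393 and 14880 CPM in Illumina. It was at least 408.9-fold lower in PacBio, a call lost without the block. ENSG00000230021, a transcribed processed pseudogene at 1:586071-827796, had 0 PacBio counts against 6718, 7077 and 6444 CPM in Illumina, at least 393.9-fold lower. A pseudogene of mitochondrial origin inside it, MTATP6P1, held 34.83% of its Illumina count and 0 PacBio counts.

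The genes that were higher in PacBio mostly share exonic sequence with another gene. Of the 1387 called higher, 85.4% overlapped an exon of another gene, against 57.8% of all tested genes and 52.5% of the 3298 called lower. For overlap on the opposite strand the shares were 74.6% of the higher, 45.4% of all and 40.3% of the lower genes. At a mean of 100 CPM or more, overlap was found for 83.6% of the higher, 65.3% of all and 56.2% of the lower genes. Long non-coding genes made up 48.8% of the higher genes and 15.2% of those tested, and protein-coding genes 42.8 and 73.9%. By summed counts, genes with an opposite-strand overlap took 56.8, 56.9 and 55.6% in PacBio against 47.6, 48.2 and 46.4% in Illumina, in 3 of 3 pairs. The sources used here do not state whether counting used the strand, so a gene and its opposite-strand partner cannot be told apart in these counts. Among the genes named in the text this holds for EGFR, FLNA, GAPDH, ACTG1, TMSB10, KRT7, KRT8, KRT18, RPL27A, EIF4E, CDH1, CTNNA1, NECTIN2, NKX2-1, SFTA2, MUC5B, VIM, MALAT1, SNHG29, NBEAL1, ZNF90, ERBB2, PHKG1, SEC61G, ACAT2, SREBF1, AIMP2, EIF2AK1, HNRNPK, FTH1, PRDX1, IFITM3, ERAP1, CALR, LYZ, RAB11B-AS1, LLGL1, SH3GLB2, DYNC2I2, KRTCAP3, LCP1, ENSG00000242396, ENSG00000230021, OS9, ENSG00000257342, REC8, IPO4, DCTN1, DCTN1-AS1, MYH7B, TRPC4AP, DOCK6, KIFC3, RBM47, EIF4A2, COL1A1, CORO1A, EEF1A1, SUMF2, KRT7-AS, MIR3661, ENSG00000272772 and ENSG00000269968. Overlap on the same strand alone was found for RPL28, COX7C, EEF2, LAMB3, CORO1B, MYH9, GPI, ERBB3, SOS1, MUC1, EBP, NEAT1, NOP56, SNHG32, PTPRCAP, MIR4260, MIR939, ARHGAP4, ENTPD4, RN7SL2, MT-ATP6, MT-CO3, MT-ND4, COL17A1, KHSRP, TLN1, MIR3940, MIR6852, MTATP6P1 and RPL12P16.

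Each of the 10 highest ratios at a mean of 100 CPM or more belonged to a gene with an overlapping partner. In PacBio these genes had 56.4 to 100% of the count of that partner. PTPRCAP, which in lymphocytes encodes a partner of the phosphatase CD45, had 10, 7 and 11 PacBio counts, and CORO1B, an actin-binding coronin that overlaps it, also had 10, 7 and 11. PTPRCAP therefore held 100% of the PacBio count of CORO1B but 0.360% of its Illumina count, with a log2 ratio of 7.47 ± 0.49. MYH7B, a muscle myosin heavy chain gene, had 51 PacBio counts, as many as TRPC4AP, and 1.77% of its Illumina count (6.62 ± 0.39). REC8, a cohesin subunit of meiosis, had 33 PacBio counts against 34 of IPO4, a nuclear import receptor, that is 97.1% in PacBio against 1.91% in Illumina. REC8 had 129, 145 and 302 CPM in PacBio against 4.19, 4.86 and 4.66 CPM in Illumina (5.38 ± 0.45). IPO4 itself was not called (-0.36 ± 0.30). DCTN1-AS1 held 56.4% of the count of DCTN1, a dynactin subunit, in PacBio and 1.17% in Illumina (5.48 ± 0.46). The remaining members were MIR4260, MIR939 and 4 non-coding genes whose exons overlap DOCK6, RBM47, KIFC3 and EIF4A2, with 85.4 to 100% of the partner's count in PacBio and 1.22 to 4.33% in Illumina. The 2 genes with most counts of PacBio replicate 3 are such a pair too: OS9, an endoplasmic reticulum lectin, and ENSG00000257342 had the same 84, 68 and 394 PacBio counts, and 281045 and 281007 Illumina counts. Neither was called (-1.08 ± 0.44, adjusted p = 0.0534), with 1208, 1231 and 7426 CPM in PacBio against 4302, 4852 and 5140 CPM in Illumina for OS9.

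MicroRNA genes, whose mature products are far below the length that either library could take up, show the same in its plainest form. As a class they took 0.805, 0.841 and 0.716% of PacBio counts against 0.235, 0.246 and 0.252% of Illumina counts. Of the 143 tested, 50 were higher and 15 lower, beside 8.21% higher and 19.5% lower of all tested genes. All 34 miRNA genes with 10 or more PacBio counts share exonic sequence with a longer host gene. They held a median of 90.7% of their host's count in PacBio and 4.13% in Illumina. The lowest PacBio share was 36.4% and the highest Illumina share 17.8%, and the share was higher in PacBio for 34 of 34. These genes were chosen for their PacBio counts, which favours a high PacBio share, so the 34 of 34 is a description only. MIR4260 lies in LAMB3, which encodes the beta-3 chain of laminin-332, an anchor of epithelia to their basement membrane. MIR4260 had 63, 47 and 39 PacBio counts and LAMB3 63, 48 and 39. In CPM, MIR4260 had 906, 851 and 735 in PacBio against 7.90, 7.91 and 7.57 in Illumina, so that the groups lay far apart (6.74 ± 0.20, adjusted p = 8.05e-55). LAMB3 had 906, 869 and 735 CPM in PacBio against 388, 436 and 412 CPM in Illumina (1.03 ± 0.27), a call lost in DESeq2, with replicates 1 and 2 summed and without pair 2. MIR6852 in TLN1, the talin gene, held 72.5% of its host's PacBio count and 1.80% of its Illumina count, and MIR3940 in KHSRP, an RNA-binding protein gene, 90.9 and 4.93%. MIR936 in COL17A1, a hemidesmosomal collagen gene, held 85 and 0.871%, and MIR3661 in ENSG00000272772 held 74.4 and 5.81%.

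The sequences behind these counts show how little of the host a miRNA gene covers. The MIR4260 precursor (RefSeq, GRCh38.p14, 1:209623444-209623510, minus strand) is 67 bases long, inside LAMB3 at 1:209614870-209652425, and its mature miRNA is in capitals:
hairpin of MIR4260: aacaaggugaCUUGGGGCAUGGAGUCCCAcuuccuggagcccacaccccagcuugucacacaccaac
The mature miRNAs of 5 such genes follow, with the seed (bases 2 to 8) in capitals. RefSeq gave a mature sequence for 29 of the 34 genes, and no seed is shared between those printed.
hsa-miR-4260: cUUGGGGCauggaguccca
hsa-miR-6852-5p: cCCUGGGGuucugaggacaug
hsa-miR-6852-3p: uGUCCUCUguuccucag
hsa-miR-3661: uGACCUGGgacucggacagcug
hsa-miR-3940-5p: gUGGGUUGgggcgggcucug
hsa-miR-3940-3p: cAGCCCGGaucccagcccacuu
hsa-miR-936: aCAGUAGAgggaggaaucgcag
The counts of these genes are no measure of the mature miRNA, which is too short for either library.

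**Figure D3:**
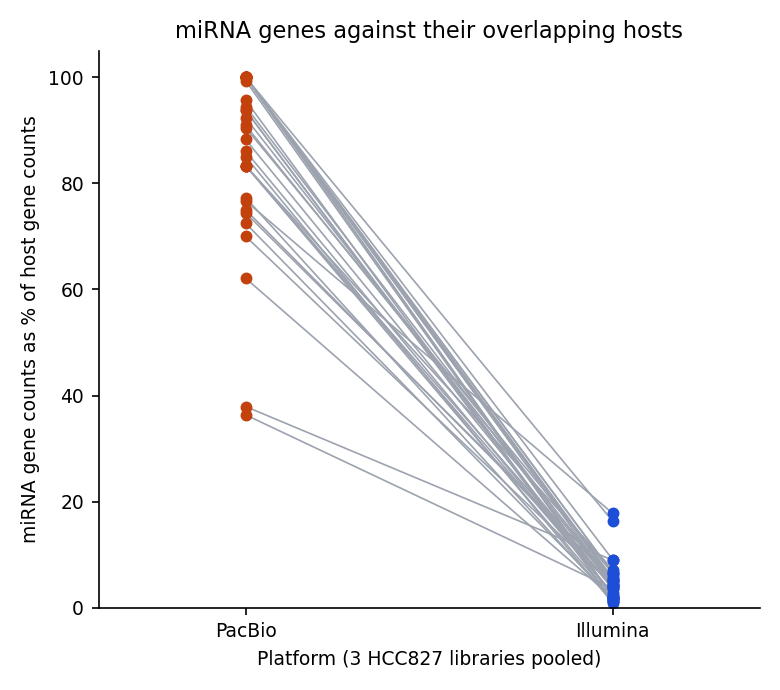
Counts of 34 miRNA genes, chosen for 10 or more PacBio counts, as a percentage of the counts of their host gene (vertical axis). PacBio is on the left and Illumina on the right, with 1 line per miRNA gene. Every line falls to the right, with PacBio shares of 36.4 to 100% and Illumina shares of 0.871 to 17.8%.

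EGFR, the mutated receptor tyrosine kinase of the line (7:55019017-55211628), was read on both platforms at a high level. It had 115, 64 and 64 PacBio counts, that is 1654, 1159 and 1206 CPM in PacBio against 4866, 3894 and 3300 CPM in Illumina. All PacBio values lay below all Illumina values, with a log2 ratio of -1.59 ± 0.38 (adjusted p = 4.64e-04). The call was lost on library totals (-0.70), with replicates 1 and 2 summed and without pair 2, and after dividing Illumina counts by transcript length the ratio was 0.32 and not called. Of EGFR and its signalling partners, 14 of 35 were lower and 0 higher, against 19.5% lower and 8.21% higher of all tested genes. Their median log2 ratio was -0.80 (-0.75 with genes at 0 at their bound) against -0.80 (-0.30) over all tested genes. On library totals 5 were lower and 6 higher. The other called members named here were low in PacBio counts: SOS1, an exchange factor for RAS, had 0 and was at least 2.81-fold lower. ERBB3, a partner receptor of EGFR, had 5, 5 and 0 PacBio counts (-1.45 ± 0.41, lost on library totals, in DESeq2 and with replicates 1 and 2 summed). ERBB2 had 74 PacBio counts against 15511 Illumina counts and was not called (0.56).

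Genes beside EGFR on 7p11 were called in both directions, with limits to both higher calls. Of 11 tested, 2 were higher and 8 lower in PacBio, against 8.21% higher and 19.5% lower of all tested genes. On library totals 2 were higher and 2 lower. PHKG1, a catalytic subunit of phosphorylase kinase, had 345, 308 and 584 CPM in PacBio against 135, 149 and 148 CPM in Illumina (1.50 ± 0.24, adjusted p = 9.89e-08). Its exons overlap those of SUMF2 on the opposite strand. PHKG1 had 24, 17 and 31 PacBio counts and SUMF2 25, 17 and 31. PHKG1 thus held 98.63% of the PacBio count of SUMF2 and 21.85% of its Illumina count, so its ratio cannot be told apart from reads of SUMF2. PSPH, the last enzyme of serine synthesis, was the other higher gene, with 28 PacBio counts (0.93 ± 0.30), a call lost in DESeq2, with replicates 1 and 2 summed and without pair 2 or pair 3. SEC61G, part of the channel that takes proteins into the endoplasmic reticulum, had 10 PacBio counts (-3.94 ± 0.45) and CHCHD2, a small mitochondrial protein gene, had 9 (-3.45 ± 0.43). VOPP1 had 518, 489 and 1037 CPM in PacBio against 1533, 1375 and 1132 CPM in Illumina, a call at -1.03 ± 0.33 that was lost under most settings. LANCL2, next to EGFR, had 43 PacBio counts (-0.99 ± 0.31), with the call lost on library totals, in DESeq2, with replicates 1 and 2 summed and without pair 2.

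Keratins, the intermediate filament proteins of epithelia, were lower in PacBio for 5 of 9 tested members and higher for 0 (on library totals 4 and 1). Of all tested genes 19.5% were lower and 8.21% higher. The median log2 ratio of the keratins was -2.56 (-1.67 with genes at 0 at their bound). Keratins took 0.242, 0.238 and 0.543% of PacBio counts against 1.01, 1.49 and 1.28% of Illumina counts. KRT18, the type I keratin of simple epithelia, had 158, 199 and 452 CPM in PacBio against 2885, 4465 and 3233 CPM in Illumina (-3.76 ± 0.44, adjusted p = 3.24e-12). KRT8, its type II partner, had 489, 453 and 1037 CPM in PacBio against 2929, 4458 and 3848 CPM in Illumina (-2.56 ± 0.40). KRT19 had 201, 235 and 697 CPM in PacBio against 3042, 4912 and 4462 CPM in Illumina (-3.56 ± 0.43). For all 3 the groups lay apart, and PacBio replicate 3 was the highest PacBio library. KRT7 had 403, 380 and 1187 CPM in PacBio against 4000, 5848 and 5130 CPM in Illumina (-3.05 ± 0.43). Its antisense gene KRT7-AS had 110 of the 112 PacBio counts of KRT7 and 18.47% of its Illumina count. KRT80 was called at -0.79 ± 0.31, which was lost under most settings.

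Of 30 epithelial junction genes 1 was higher and 8 lower, not far from the 8.21% higher and 19.5% lower of all tested genes, with a median log2 ratio of -0.51. PARD3, a polarity scaffold, had 0 PacBio counts and was at least 8.90-fold lower, and TJP1, the tight junction plaque protein ZO-1, had 6 PacBio counts against 12149 Illumina counts (-2.60 ± 0.46). NECTIN2 was higher at 0.97 ± 0.36, a call lost in DESeq2, with replicates 1 and 2 summed, without the replicate block and without pair 2 or pair 3. CTNNA1, the most abundant member, had 532, 435 and 867 CPM in PacBio against 798, 845 and 813 CPM in Illumina and was not called (-0.46 ± 0.30). EPCAM was called at -1.11 ± 0.33, which was lost on library totals, in DESeq2, with replicates 1 and 2 summed and without pair 2. CDH1 was not called (-0.56 ± 0.30).

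Airway secretory genes, which include the gel-forming and membrane mucins, were lower for 7 of 16 tested members and higher for 0 (on library totals 4 and 2). Of all tested genes 19.5% were lower and 8.21% higher. MUC5B, a gel-forming mucin of the airway, had 546, 652 and 264 CPM in PacBio against 1215, 1407 and 894 CPM in Illumina (-1.30 ± 0.33, adjusted p = 0.00102). The groups did not overlap, but the call was lost on library totals, with replicates 1 and 2 summed and without pair 2, and per transcript length the ratio was 1.46. MUC4, a membrane mucin with a long repeat region, had 0 PacBio counts and was at least 5.39-fold lower, MUC1 had 1 against 18435 Illumina counts, and MUC16 had 10 (-3.61). LCN2, a secreted iron-carrier binding protein, had 11 PacBio counts against 64451 Illumina counts (-4.07 ± 0.45). Of 13 alveolar lineage genes 5 were lower and 0 higher (on library totals 1 and 0). SFTA2, a secreted protein of alveolar cells, had 0, 0 and 1 PacBio counts against 93.2, 102 and 124 CPM in Illumina (-4.22 ± 0.78), and NKX2-1 was at -2.27 ± 0.55 (lost on library totals). CAV1, the caveolar coat protein, was called at -1.04 ± 0.33, which was lost under most settings. Of 14 mesenchymal genes 2 were lower and 0 higher, no more than the 19.5% lower of all tested genes: TGFBI, a secreted adhesion protein, at -1.54 ± 0.34 (lost on library totals, with replicates 1 and 2 summed and without pair 2), and VIM, with 1, 2 and 1 PacBio counts, at -1.71 ± 0.57 (lost under most settings).

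Several of the most abundant mRNAs of metabolism and of the cytoskeleton were lower in PacBio, and among them were genes often taken as constant references. Of 21 glycolysis genes 9 were lower and 0 higher (on library totals 7 and 2). Beside them, 19.5% of all tested genes were lower, and 33.9% of those at a mean of 100 CPM or more. The median log2 ratio of the glycolysis genes was -0.68 (0.20 on library totals), against -0.80 (-0.30 with genes at 0 at their bound) over all tested genes. The glycolysis genes took 0.382, 0.451 and 0.753% of PacBio counts against 1.42, 2.04 and 1.85% of Illumina counts. GAPDH, the glycolytic dehydrogenase, had 8, 9 and 25 PacBio counts, that is 115, 163 and 471 CPM in PacBio against 7732, 11568 and 10892 CPM in Illumina (-5.46 ± 0.55, adjusted p = 5.67e-15). The antisense gene ENSG00000269968 inside it had the same 42 PacBio counts as GAPDH and 48.61% of its Illumina count. GPI, the isomerase of the same pathway, was called at -1.38 ± 0.33 (lost on library totals, with replicates 1 and 2 summed and without pair 2). Of 16 common reference genes 9 were lower and 0 higher (on library totals 7 and 3), with a median of -1.64. IPO8 among them was nearest to equal of those called (-1.52 ± 0.49, lost under most settings). Of 32 actin and tubulin cytoskeleton genes 23 were lower and 0 higher (on library totals 11 and 3), with a median of -1.79. They took 0.605, 0.635 and 1.06% of PacBio counts against 1.76, 1.98 and 1.85% of Illumina counts. ACTG1, gamma actin, had 719, 634 and 1527 CPM in PacBio against 7691, 8916 and 8860 CPM in Illumina (-3.23 ± 0.46). TMSB10, a very short mRNA for an actin-binding thymosin, had 2, 2 and 5 PacBio counts (-4.73 ± 0.48).

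Cholesterol and fatty acid synthesis genes stood near to even between the platforms on the TMM scale. Of 32 members, 5 were higher and 4 lower in PacBio, with a median log2 ratio of -0.01. Of all tested genes 8.21% were higher and 19.5% lower. Of the 12473 tested nuclear protein-coding genes 594 were higher and 2465 lower. The cholesterol and fatty acid genes took 0.880, 0.868 and 0.766% of PacBio counts against 0.535, 0.590 and 0.506% of Illumina counts, and on library totals 13 were higher and 0 lower. INSIG1, the sterol-sensing brake on the pathway, had 216, 181 and 151 CPM in PacBio against 84.7, 63.8 and 74.4 CPM in Illumina (1.30 ± 0.28, adjusted p = 1.23e-04), a call lost without pair 2. ACAT2, which makes the acetoacetyl-CoA that opens the sterol pathway, was at 1.81 ± 0.36. MSMO1, a sterol oxidase, was at 1.21 ± 0.39, and SREBF1, a master transcription factor of lipid synthesis, at 0.69 ± 0.27, and both calls were lost in DESeq2, with replicates 1 and 2 summed and without pair 2, the first also without pair 3. FASN, the multi-enzyme that builds palmitate, had 1424, 1593 and 490 CPM in PacBio against 1320, 1922 and 1177 CPM in Illumina and was not called (-0.41 ± 0.33, adjusted p = 0.354). EBP, a sterol isomerase with 1 PacBio count, was lower at -2.59 ± 1.02, a call lost under most settings.

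**Figure D4:**
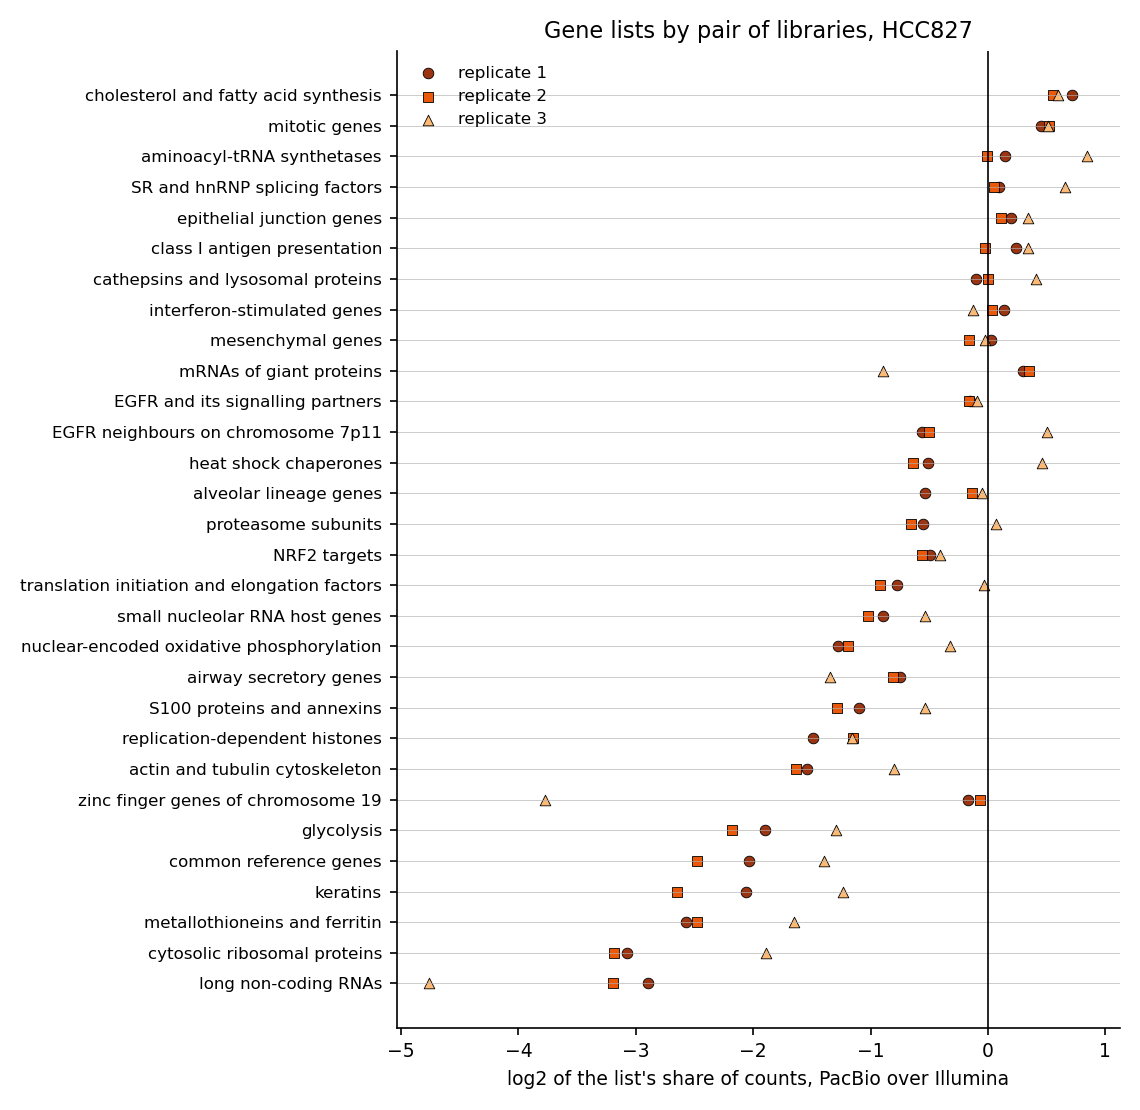
Log2 ratio of the share of counts, PacBio over Illumina (horizontal axis), for each gene list with at least 5 tested members and counts in every library (vertical axis), with 1 symbol per replicate pair. The long non-coding RNA and ribosomal protein lists lie at or left of -1.89 in all 3 pairs, the chromosome 19 zinc finger list lies at -3.77 in pair 3 alone, the cholesterol and mitotic lists lie right of 0 in all 3 pairs, and pair 3 often lies apart from pairs 1 and 2.

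The remaining lists were lower in PacBio or mixed. Beside them, 19.5% of all tested genes were lower and 8.21% higher, and 33.9% and 15.1% at a mean of 100 CPM or more. Of 36 proteasome subunits 16 were lower and 0 higher (median -1.06, on library totals 6 and 0). The called ones ranged from PSMA3 at 0 PacBio counts to PSMD3 at -1.26 ± 0.35. The call of PSMD3 was lost on library totals, in DESeq2, with replicates 1 and 2 summed and without pair 2. Of 30 heat shock chaperones 17 were lower and 0 higher (median -1.03, on library totals 5 and 3), with HSPB1, a small heat shock protein, at -3.33 ± 0.43. Of 23 aminoacyl-tRNA synthetases and their scaffold genes 6 were lower and 1 higher (on library totals 0 and 4), not far from the shares of all tested genes. The higher one was AIMP2 at 1.48 ± 0.27, with 16, 9 and 15 PacBio counts. EIF2AK1, which overlaps it on the opposite strand, also had 16, 9 and 15. AIMP2 thus held 100% of the PacBio count of EIF2AK1 and 25.04% of its Illumina count. Of 32 splicing factors 13 were lower and 0 higher (on library totals 6 and 2), and HNRNPK, the most abundant, was not called (0.25 ± 0.28). Of 18 S100 and annexin genes 9 were lower and 0 higher (on library totals 4 and 1), with ANXA1 at -1.78 ± 0.34 (lost on library totals). Of 6 metallothionein and ferritin genes 4 were lower and 0 higher (on library totals 3 and 0), with FTH1, the ferritin heavy chain, at -2.98 ± 0.39 and FTL, the light chain, at -2.90 ± 0.40.

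Immune, stress and cell cycle genes gave a similar mix, beside 19.5% lower and 8.21% higher of all tested genes. Of 14 class I antigen presentation genes 5 were lower and 1 higher. The higher one, ERAP1, the endoplasmic reticulum peptidase that trims peptides for class I molecules, had 791, 579 and 565 CPM in PacBio against 249, 201 and 227 CPM in Illumina (1.52 ± 0.24, adjusted p = 1.31e-07), with no overlap of the groups. CALR, the lectin chaperone of the same compartment, was lower at -2.81 ± 0.40. Of 32 interferon-stimulated genes 11 were lower and 1 higher, with IFITM3, a small membrane protein that blocks virus entry, at -5.08 ± 0.71 from 0, 1 and 0 PacBio counts. Of 22 targets of the oxidative stress factor NRF2 5 were lower and 0 higher, a share near that of all tested genes, with PRDX1, a peroxidase, at -3.95 ± 0.51 and TXNRD1, the thioredoxin reductase, at -2.12 ± 0.36. The lncRNA gene ENSG00000257732 inside TXNRD1 had 15 of its 78 PacBio counts and 80.17% of its Illumina count. Of 25 lysosomal genes 10 were lower and 0 higher (median -0.40), which on library totals became 3 lower and 7 higher. Of 31 mitotic genes 8 were lower and 1 higher, not far from the shares of all tested genes (median -0.10), and they took 0.308, 0.341 and 0.300% of PacBio counts against 0.225, 0.237 and 0.210% of Illumina counts. Of 25 zinc finger genes of chromosome 19, 4 were lower and 1 higher, shares near or under those of all tested genes, and 16 had 0 PacBio counts and 11 of those were at or under the floor in Illumina, where no difference was detectable at this depth. The share ratio of the zinc finger genes was -0.17 and -0.07 in pairs 1 and 2 and -3.77 in pair 3, so it rests on pair 3.

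Genes without any exon overlap that were higher in PacBio were few, and the highest were looked up after values had been seen. SPATA2L, a relative of the deubiquitinase adaptor SPATA2, had 18, 10 and 10 PacBio counts, that is 259, 181 and 189 CPM in PacBio against 24.7, 36.1 and 36.5 CPM in Illumina (2.75 ± 0.31, adjusted p = 8.31e-13). BRAT1, a regulator of the DNA damage response, had 216, 217 and 320 CPM in PacBio against 76.1, 92.9 and 84.3 CPM in Illumina (1.57 ± 0.26). Its groups did not overlap, and neither did those of SPATA2L. RHOT2, a mitochondrial GTPase, was at 1.44 ± 0.31. B3GALT4 (1.71), EPS8L1 (1.57) and SAFB2 (1.56) were called as well, and each lost its call without pair 3.

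**Figure D5:**
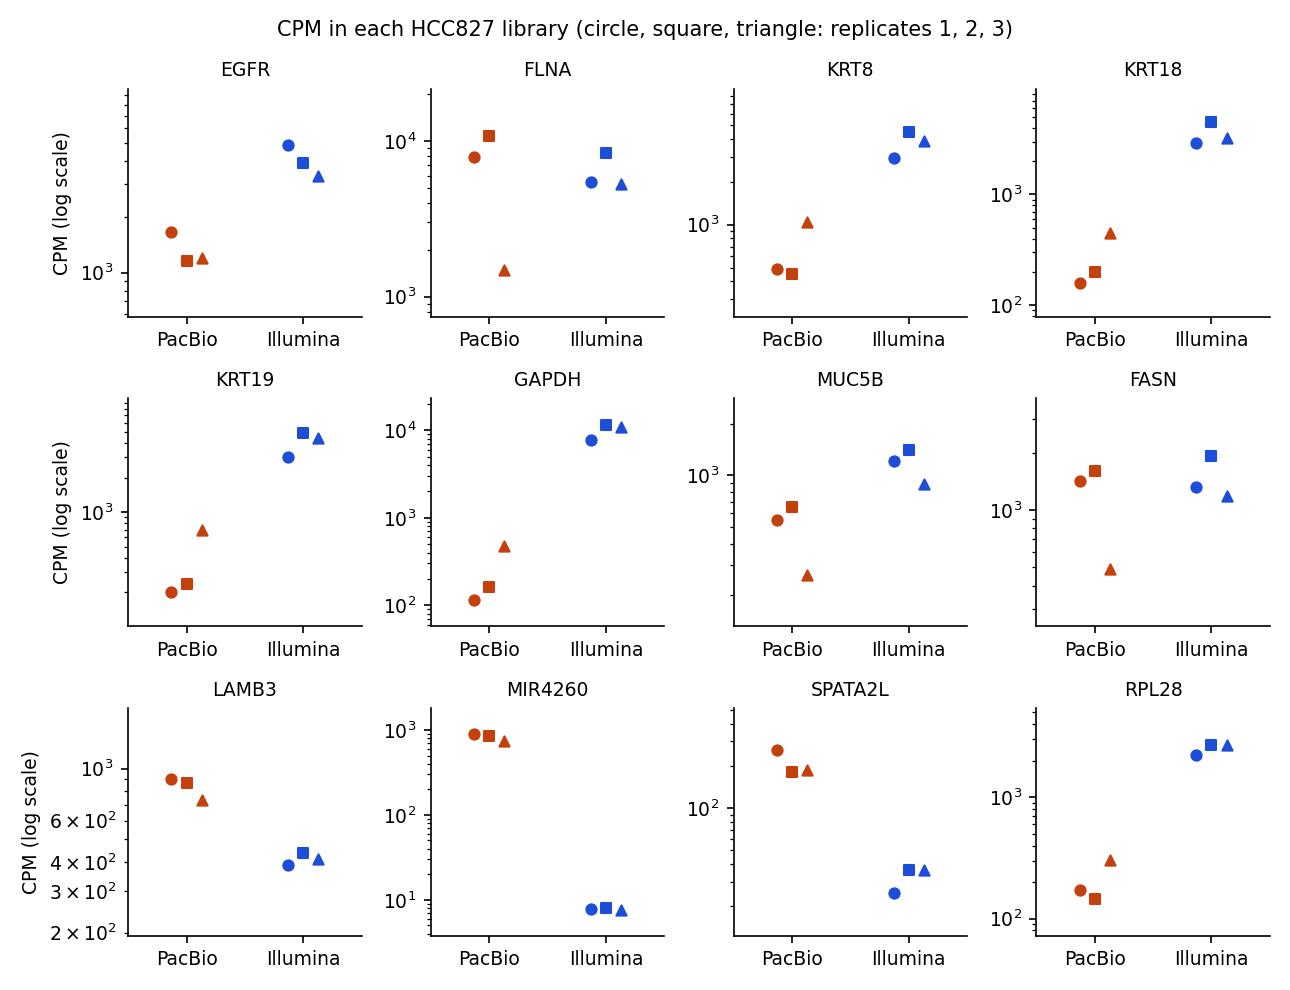
Level in CPM (vertical axis, log scale) of 12 genes in each library, with PacBio left of Illumina in every panel and circles, squares and triangles for replicates 1, 2 and 3. GAPDH, KRT8, KRT18, KRT19 and RPL28 are lower in all PacBio libraries, MIR4260 and SPATA2L are higher, and FLNA and FASN overlap between the platforms.

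Depth set what PacBio could see. Genes with at least 1 count numbered 11129, 10393 and 8980 in PacBio against 35634, 29569 and 33736 in Illumina. At an equal depth of 37733 counts the numbers were 10015, 10127 and 8980 in PacBio against 9672, 9280 and 9273 expected in Illumina, and replicate 3 went the other way from replicates 1 and 2. The mean difference of 299.2 genes became 24.98 without pair 2, 595.5 without pair 3 and -76.7 without the mitochondrial genes. Of well expressed protein-coding genes (Illumina CPM of 100 or more), 1 of 313 genes of 2 to 3 kb had 0 PacBio counts (0.320%), against 6 of 70 genes of 8 to 10 kb (8.57%) and 3 of 65 of 10 kb or more (4.62%). The share did not rise steadily with length: it was 2.55% at 3 to 4 kb (6 of 235) and 0.730% at 6 to 8 kb (1 of 137). NBEAL1, of 16349 bases and with 94.65% of its Illumina count in RPL12P16, is a gene of the longest class with 0 PacBio counts. Across 12473 tested nuclear protein-coding genes, the Spearman correlation of the pooled levels was 0.688, and 0.619 with Illumina per kb. Over the 1910 of them with a mean of 100 CPM or more and PacBio counts, a narrower range of levels, it was 0.140 and 0.02996. That cut is on the mean of both platforms, so a gene low on 1 passes only if high on the other. The cut by itself lowers the correlation, so 0.140 and 0.02996 do not measure the agreement of well measured genes. These are descriptions across genes of the same libraries, with no test.

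The platform ratio of HCC827 was close to that of H1975 for most genes. A test of the difference between the ratios of the lines, in 1 edgeR model over 12 libraries, called 30 of 19189 genes (0.156%), of which 4 had a higher ratio in HCC827 (0.0208%) and 26 a lower one (0.135%). Without the replicate block 4 genes were called. The ratios of each line given here come from that joint model, which had its own gene filter and TMM scaling, and are not on the scale used above. EGFR in HCC827, for example, was at -2.06 in the joint model and at -1.59 in the main fit. With so few PacBio counts per gene, differences of moderate size were not detectable at this depth. CBS, which makes cystathionine from homocysteine, had 1, 0 and 1 PacBio counts in HCC827 against 3078, 927 and 2956 Illumina counts, and in H1975 6, 5 and 5 against 1401, 1640 and 1336. Its log2 ratio was -3.88 in HCC827 and 0.68 in H1975 (difference -4.56 ± 0.74, adjusted p = 3.92e-04). RAB11B-AS1, an antisense gene, had 7, 6 and 8 PacBio counts in HCC827 against 396, 142 and 387 Illumina counts, and in H1975 16, 12 and 17 against 10187, 10752 and 10305. Its ratio was 2.38 in HCC827 and -0.67 in H1975 (difference 3.05 ± 0.43, adjusted p = 1.60e-05).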

How the data were processed

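Gene-level counts of 3 PacBio and 3 Illumina libraries of HCC827 were analysed. The authors deposited whole-number counts of reads or sequences per gene, 1 file per library, with no normalization. The submitters' processing notes name the aligner minimap2 2.17, the counter featureCounts and the build GRCh38. The sources used here do not state the strand setting, the annotation release or what was done with reads that match several places or several genes. Per the file headers, PacBio counts came from clustered sequences, the header of PacBio replicate 3 alone names poly(A), and that of Illumina replicate 3 names a repeat run with another number than its label. The Oxford Nanopore libraries were not used here.

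Genes were joined on Ensembl identifiers without version (58444 shared, 58207 of them in GENCODE release 44, which gave symbols, coordinates, biotypes, overlaps and lengths). A gene's length is that of its canonical transcript, or the union of its exons where none is tagged. Spike-in RNAs were left out of library sizes and tests; their share was 0.0754, 0.127 and 0.0476% in PacBio and 2.79, 3.71 and 1.88% in Illumina. Genes passing edgeR's filterByExpr by platform were tested with edgeR 4.0.16 (TMM scaling, robust quasi-likelihood fit, two-sided) in R 4.3.3, with the replicate number as a block, since the labels give same-numbered libraries the same RNA sample and all 3 pairs deviated together. Adjusted p-values are Benjamini-Hochberg over all tested genes, and n is 3 libraries a platform. CPM refer to the TMM-scaled library size. The fit was also run on simulated counts, and the outcome is not reported here. Nothing says that the replicates differ by more than culture, so p-values measure the spread between these samples.

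The libraries, gene lists and tests were chosen with earlier results of these data known. Named were EGFR, the genes with the most counts, the 10 highest and 10 lowest ratios at a mean of 100 CPM or more, the extreme and most abundant members of each list, and up to 10 genes that differed from H1975; some genes that this rule names are not reported here. Classes by level, subsets of short genes, genes within other genes' spans, overlapping partners and genes named for having no overlap were added after values had been seen. Alternatives were other scalings, filters, lengths and tools (DESeq2 1.42.0, limma-voom 3.58.1), Illumina thinned to PacBio depth, shared versions only, replicates 1 and 2 summed, and each pair left out. Where the same RNA molecule can be counted for more than 1 gene, shares of counts are shares of assignments.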

Additional observations from a re-analysis of the deposited data

Results flagged for a closer look

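The genes below were flagged because the PacBio over Illumina ratio differed between HCC827 and H1975 by a test of the difference itself (edgeR, 1 model over 12 libraries, adjusted over 19189 genes); differences are HCC827 minus H1975 on the log2 scale, with SE. RAB11B-AS1 differed by 3.05 ± 0.43 (ratio 2.38 in HCC827 and -0.67 in H1975), and LLGL1, a cell polarity gene, by 1.11 ± 0.19 (3.55 and 2.44, with 50, 41 and 43 PacBio counts in HCC827 against 30, 25 and 22 in H1975, adjusted p = 8.17e-04). The others had the lower ratio in HCC827. CBS differed by -4.56 ± 0.74 (-3.88 and 0.68). KRTCAP3 differed by -3.63 ± 0.71 (-1.79 and 1.83). ARHGAP4 differed by -2.99 ± 0.54 (-3.04 and -0.05). SUGP1, a splicing factor gene, differed by -2.32 ± 0.39 (0.46 and 2.78). ENTPD4 differed by -1.93 ± 0.38 (0.93 and 2.87), and the lncRNA gene ENSG00000242396 by -1.90 ± 0.38 (0.90 and 2.80). SH3GLB2 differed by -1.89 ± 0.31 (0.95 and 2.84), and DYNC2I2, a dynein chain gene, by -1.21 ± 0.23 (1.68 and 2.89). Without the replicate block the number of called genes fell to 4, against 30 with it. The ratios of each line in this paragraph come from the joint model and are not on the scale of the main HCC827 fit.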

How the results depend on the processing

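The count of genes called higher was 1387 and that of genes called lower 3298. Calls higher numbered 138 with Illumina thinned to PacBio depth, 187 among genes without exon overlap, 3012 on library totals, 2578 with limma-voom, 560 at a mean of 100 CPM or more refitted alone and 792 among genes with the same Ensembl version. Calls lower numbered 1913 in DESeq2, 234 thinned, 1331 without overlap, 1484 on library totals, 564 at 100 CPM or more, 1775 with replicates 1 and 2 summed and 1918 with the same version. Leaving out 1 pair gave 0 to 1361 higher and 0 to 3612 lower, with 630 and 1600 without pair 2 and both 0 without pair 1. Of the 4685 calls, 2711 were also made, the same way, with replicates 1 and 2 summed. Without the replicate block 1407 genes were higher and 3350 lower, and 144 of the 148 tested named genes kept their side of the threshold, so the pairing moved few calls within HCC827; in the test against H1975 the block gave 30 calls and no block 4.

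Mean log2 ratios of length shares moved with the definition of length: with the union of exons they were -0.34 under 1.5 kb, -0.70 at 1.5 to 2.5 kb, 0.024 at 2.5 to 5 kb and -0.0015 at 8 kb or more. Over all genes they were -0.61 under 1.5 kb and 0.56 at 2.5 to 5 kb, and without overlapping genes -1.41 under 1.5 kb. Without 1 pair they ranged from -1.07 to -0.87 under 1.5 kb, from -0.17 to 0.03 at 1.5 to 2.5 kb, from 0.38 to 0.40 at 2.5 to 5 kb, from -0.07 to 0.18 at 5 to 8 kb and from -0.67 to -0.24 at 8 kb or more. The difference in genes at equal depth was 299.2, from 24.98 to 595.5 without 1 pair, and -76.7 without mitochondrial genes. With Illumina per transcript length the log2 ratio changed sign, with a call under at least 1 of the settings, for EGFR (0.32), FLNA (1.44), MUC5B (1.46), ANXA11 (0.41), FASN (1.26) and DCTN1 (0.74). On thinned counts it did so for KRT80 (0.22), and on library totals for KRT80 (0.086), CCT6A (0.0054), LCP1 (0.0495) and DCTN1 (0.88). Genes in the report that were called under neither setting changed sign too: per length CTNNA1 (0.047), CDH1 (0.31), IPO4 (0.041), CORO1B (0.0040) and CORO1A (-0.23), and on library totals FLNA (0.64), FASN (0.47), CTNNA1 (0.43), CDH1 (0.32), EIF4A2 (0.63), IPO4 (0.53) and CORO1B (0.15). The cause of these changes was not tested, except that thinning, pair removal and stricter filters leave fewer counts, samples or genes. Depth limits PacBio: 4724 tested genes had 0 PacBio counts, and for 3131 of them Illumina was at or under the floor.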
